A study of Mus musculus with 4 samples.

Results

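The 7 genes described here encode proteins that hold epithelial cells together, and they were picked by symbol from the 32285 genes of a droplet single-cell RNA data set: the cadherins Cdh1, Cdh2 and Cdh3, the adhesion protein gene Epcam, the claudins Cldn6 and Cldn7, and the tight junction scaffold gene Tjp1. All 7 were found, each in a single row. The study profiled E14tg2a.4, a male mouse embryonic stem cell (mESC) line, and a derived line that carries a heterozygous gene-trap truncation of the splicing factor gene Srrm2, with 2 WT and 2 Srrm2 hKO samples. Both lines were grown on gelatin with the cytokine LIF, which keeps such cells self-renewing. The labels give 24 h or 72 h in serum-free medium before collection without tying a time to a sample, and the study's methods give another length. The mutant is a single gene-trap line, so effects of the trapped allele and of that line cannot be told apart. The deposited matrix numbers its libraries from 1 to 4, and nothing in the sources used here ties a number to a sample. The genotypes were therefore not compared. Each library is 1 culture, and differences between libraries have no replicate error and no p-value.

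Cadherins join neighbouring cells through calcium-dependent contacts and are anchored to actin by catenins. Mouse embryonic stem cells and the early epiblast use E-cadherin (Cdh1), and a change from E-cadherin to N-cadherin (Cdh2) is a known feature of epithelial-mesenchymal transition, as at the primitive streak. Claudins and the scaffold ZO-1, the product of Tjp1, build tight junctions at the apical edge of epithelial cells. Epcam is a surface glycoprotein of epithelial and pluripotent cells, known to bind claudin-7.

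In the GRCm38 mouse genome (GENCODE vM21), Cldn6 (ENSMUSG00000023906, chr17:23679249-23682446) and Epcam (ENSMUSG00000045394, chr17:87635979-87651129) lie on chromosome 17. Cldn7 (ENSMUSG00000018569) is at chr11:69964779-69967885 and Tjp1 (ENSMUSG00000030516) at chr7:65296165-65527781. RefSeq promoter windows (GRCm38.p6) were given for these 4 members.

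The 250 bases before the start are printed for Epcam and Cldn7. They were chosen since Cldn7 was low in cells of a keratin-high subset, described further on, that were picked for having no Epcam UMI. Capitals mark CACCTG and its reverse complement CAGGTG, the E-box form that Snail and Zeb repressors are known to bind.
Epcam, chr17:87635729-87635978, plus strand: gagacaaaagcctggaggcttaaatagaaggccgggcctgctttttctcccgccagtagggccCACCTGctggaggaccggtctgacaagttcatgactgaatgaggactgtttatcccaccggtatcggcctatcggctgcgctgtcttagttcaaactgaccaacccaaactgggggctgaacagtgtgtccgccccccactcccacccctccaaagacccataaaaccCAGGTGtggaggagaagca
Cldn7, chr11:69964529-69964778, plus strand: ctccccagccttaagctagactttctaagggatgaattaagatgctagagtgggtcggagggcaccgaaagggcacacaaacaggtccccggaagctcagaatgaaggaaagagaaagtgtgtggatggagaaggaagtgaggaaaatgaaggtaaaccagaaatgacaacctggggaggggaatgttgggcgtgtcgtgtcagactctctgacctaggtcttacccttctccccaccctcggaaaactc
The Epcam window held the motif at 2 places, 187 and 19 bases before the start, and the Cldn7 window held none. The windows of Cldn6 and Tjp1 held 1 and 0, but that of Cldn6 has 116 bases in an annotated exon, and that of Tjp1 lies within the gene span given above, before an internal RefSeq start. Among 32851 RefSeq windows of the same length, 17.2% held at least 1 match. A match is a description of the letters, and binding was not measured.

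Of the cadherin genes, Cdh3 (ENSMUSG00000061048, chr8:106510891-106557297) and Cdh1 (ENSMUSG00000000303, chr8:106603351-106670246) are neighbours on the same strand, and Cdh2 (ENSMUSG00000024304) spans chr18:16588877-16809246.

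The cell filter stated by the study, as rebuilt here, kept 31989 of 41142 barcodes, a number that differs from the study's own, with 7464 to 8514 cells and 166839268 to 200180473 UMIs per library. A UMI (unique molecular identifier) stands for 1 captured transcript 3′ end. The targeted gene Srrm2 stood at 387, 533, 238 and 356 CPM in libraries 1 to 4, which was not used to assign genotypes. Of 31883 distinct barcode sequences among kept cells, 105 occurred in more than 1 library. Cells were clustered without the adhesion genes, and clusters were named from marker lists. Naive-like cells (24049, rich in Zfp42, Klf4 and Esrrb) were the most numerous class in each library. In library 4 this was a near tie, with 3705 naive-like and 3677 formative-like cells. The order reversed there in the finer clustering used further on, with 3425 naive-like and 3892 formative-like cells. Formative-like cells (5283, rich in Fgf5, Pou3f1 and Dnmt3b) lay almost wholly in library 2 with 1604 and library 4 with 3677 cells. Cells of a cluster with high summed Krt8, Krt18 and Acta2, called keratin-high (2605), lay mainly in library 1 with 449 and library 3 with 2063 cells. Acta2 came almost wholly from a minority of them, described further on. In library 1 the formative panel of keratin-high cells, at 1320 CPM, exceeded the keratin panel at 892 CPM. In library 3 these panels stood at 1078 and 3009 CPM. The naive panel of the class was lower than its formative panel in both libraries, at 558 and 526.5 CPM. The class was named by the keratin panel before the pluripotency panels were compared. In the larger of the subsets described further on, the formative panel exceeded the keratin panel over the libraries together, at 1277 and 905 CPM. The libraries that hold the keratin-high class depend on its definition. Set instead by at least 3 Krt8 plus Krt18 UMIs among 5000 drawn per cell, such cells numbered 654 in library 3 and 306 in library 4. Library 1 then had fewer than the 100 cells required of a class. Different clusters held the naive-like cells of the libraries: cluster 1 those of libraries 1 and 3, cluster 2 those of library 2, and cluster 4 most of those of library 4. Another 52 cells rich in two-cell-stage genes were left out of the classes. Cells of more than 2 times the median UMI count of their library, which can be doublets, made up 22.7 and 17.2% of keratin-high cells in libraries 1 and 3, beside 4.53 and 2.98% of naive-like cells.

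Levels are UMIs of a gene per 1000000 UMIs (CPM) with exact 95% Poisson intervals, which cover counting error only. Since only 3′ ends are counted, levels are compared between cells and libraries, not between genes. Cdh1 stood at 40.9, 86.7, 62.8 and 114 CPM in libraries 1 to 4. Epcam stood at 245, 299, 301 and 378 CPM, and Tjp1 at 37.2, 58.5, 51.0 and 69.2 CPM. Library 1 was lowest and library 4 highest for these 3 genes. Cldn6, a claudin of early embryonic epithelia, stood at 7.74, 37.3, 24.8 and 63.2 CPM, and Cldn7 at 34.0, 43.8, 75.4 and 127 CPM. Cdh3 (P-cadherin) stood at 6.05, 13.2, 9.30 and 14.8 CPM. These followed the same extremes, so that 6 of 7 members were lowest in library 1 and highest in library 4. Cdh2 stood at 9.16, 7.998, 9.19 and 7.37 CPM, with library 3 nominally highest and library 4 lowest, and the intervals of libraries 1 and 3 overlapped.

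The highest library exceeded the lowest 8.17-fold for Cldn6 (7.71 to 8.66), 3.73-fold for Cldn7 (3.62 to 3.84) and 2.79-fold for Cdh1 (2.72 to 2.87). The ratio was 2.44 for Cdh3 (2.27 to 2.63), 1.86 for Tjp1 (1.80 to 1.92), 1.54 for Epcam (1.52 to 1.56) and 1.25 for Cdh2 (1.16 to 1.34). Under median-of-ratios size factors Epcam was at 1.33 and so under 1.5. A ratio of at least 1.5 was reached by 6 of 7 members, and by 41.0% of the 11099 genes with at least 200 counts in each library. Among these genes the range of Cldn6 lay at percentile 99.6 and that of Cldn7 at percentile 97.1.

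Spread between libraries was also present within naive-like cells. There the ranges of Cdh3, at 3.07-fold (2.83 to 3.33), and of Cdh2 were wider than over all kept cells. In naive-like cells Cldn6 stood at 4.61, 28.5, 9.26 and 40.7 CPM in libraries 1 to 4, a range of 8.83-fold (8.14 to 9.59). Cdh1 stood at 36.6, 77.1, 47.1 and 89.6 CPM, and Cdh3 at 6.05, 14.3, 9.79 and 18.6 CPM. Both were higher in libraries 2 and 4 than in libraries 1 and 3, as was Tjp1 at 34.8, 53.3, 38.7 and 55.6 CPM. Cldn7 departed from this order at 21.7, 21.5, 25.6 and 47.8 CPM, with library 4 highest and the interval of library 3 just above those of libraries 1 and 2. Cdh2 had another order, with library 1 highest and library 4 lowest, at 9.48, 7.77, 5.83 and 5.398 CPM in libraries 1 to 4, a range of 1.755-fold (1.58 to 1.96). Within naive-like cells 6 of 7 members, Epcam being the exception at 1.33-fold, differed at least 1.5-fold between libraries, beside 32.4% of all genes tested there.

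**Figure D1:**
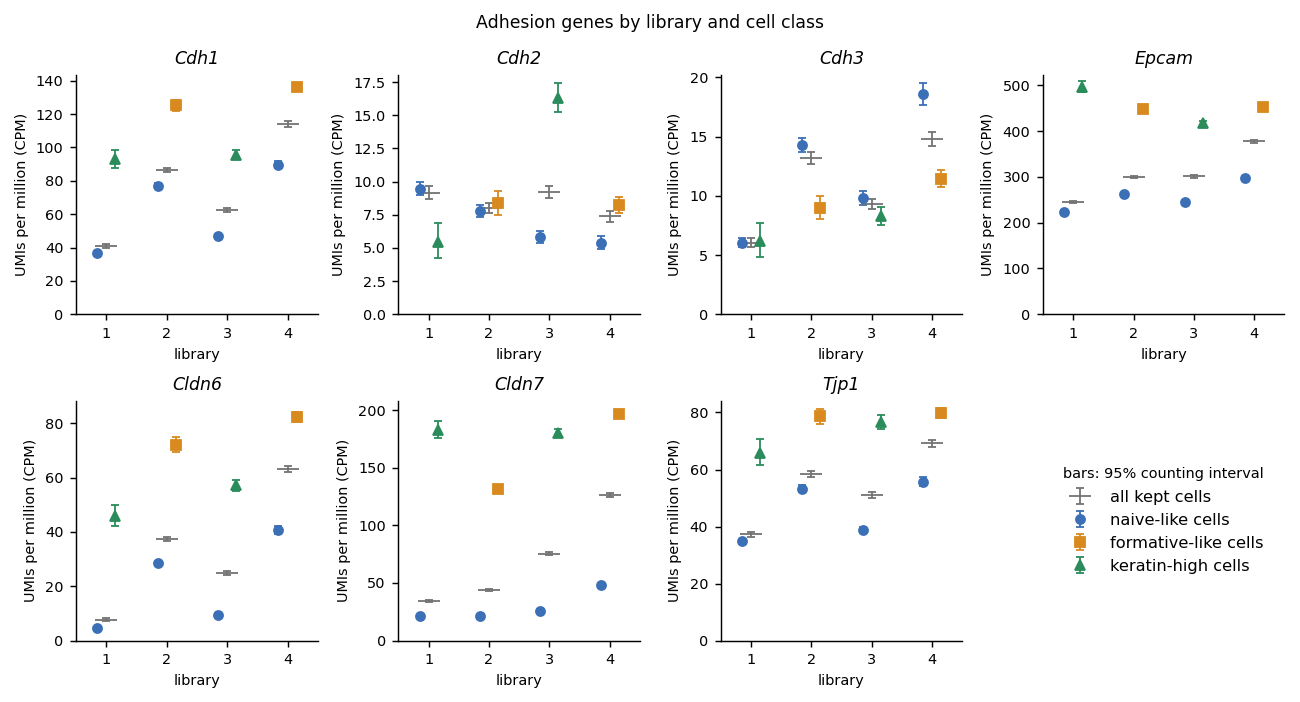
Level of each gene (CPM, linear axis from 0) in libraries 1 to 4, over all kept cells (grey bars) and in naive-like (circles), formative-like (squares) and keratin-high cells (triangles), with 95% counting intervals. Cldn7 in keratin-high cells stood at 183 and 180 CPM in libraries 1 and 3, beside 21.7 and 25.6 CPM in naive-like cells.

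Keratin-high cells had more Cdh1, Epcam, Cldn6, Cldn7 and Tjp1 than naive-like cells of the same library. The class was present with at least 100 cells in libraries 1 and 3. A gene was called if its level was 1.5-fold or more apart, in 1 direction, in both of them. By this rule 5 of 7 members were higher and 0 lower, whereas 15.2% of 11340 genes were called higher and 9.58% lower. The median fold of the members was 2.21 and 2.03 in libraries 1 and 3, beside 1.079 and 1.075 over all genes tested (0.11 and 0.10 on the log2 scale).

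Both claudins differed most. Cldn6 stood at 4.61 CPM in naive-like and 45.9 CPM in keratin-high cells of library 1, and at 9.26 and 57.3 CPM in library 3. These are folds of 9.97 (8.92 to 11.1) and 6.18 (5.77 to 6.63). Cldn7 went from 21.7 to 183 CPM in library 1, 8.42-fold (7.99 to 8.89), and from 25.6 to 180 CPM in library 3, 7.02-fold (6.74 to 7.32). The intervals of both claudins were far from those of naive-like cells in either library. Cdh1 stood at 93.0 and 95.7 CPM in keratin-high cells, 2.54-fold (2.38 to 2.71) and 2.03-fold (1.95 to 2.11) above naive-like cells. Epcam reached 497 and 418 CPM from 224 and 246 CPM, folds of 2.21 (2.16 to 2.27) and 1.70 (1.67 to 1.73), the latter 1.499 under median-of-ratios size factors and so just short of a call. Tjp1 reached 65.9 and 76.7 CPM, folds of 1.89 (1.76 to 2.04) and 1.98 (1.90 to 2.07). The keratin-high levels of Cdh1 were thus close in both libraries, although their naive-like cells differed.

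Cdh3 was not called, with 6.05 against 6.14 CPM in library 1 and 9.79 against 8.26 CPM in library 3, folds of 1.02 (0.796 to 1.28) and 0.844 (0.756 to 0.942). Cdh2 went in opposite directions. In library 1 it stood at 9.48 CPM in naive-like and 5.44 CPM in keratin-high cells, a fold of 0.574 (0.444 to 0.730), and in library 3 at 5.83 and 16.3 CPM, a fold of 2.80 (2.53 to 3.10). The summed level of 8 fibroblast or mesenchyme markers was 173 and 185 CPM in naive-like and keratin-high cells of library 1, and 123 and 668 CPM in library 3, most of it Vim. Of the other list genes Col1a2 stood at 0.00650 and 5.83 CPM in naive-like and keratin-high cells of library 1 and at 0.0602 and 15.7 CPM in library 3. Its naive-like values rest on 1 and 7 UMIs. In library 3 Col1a1 went from 0.146 to 11.8 CPM, Col3a1 from 0.0344 to 3.94 CPM and S100a4 from 0.0344 to 2.74 CPM. The naive-like values of Col3a1 and S100a4 rest on 4 UMIs each. In keratin-high cells Lum was at 0 and 0.0180 CPM and Dcn at 0.158 and 0.216 CPM in libraries 1 and 3, from few UMIs. The part of such cells in the result was not tested.

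Formative-like cells of libraries 2 and 4 also had more of both claudins than naive-like cells, and had less Cdh3. Over naive-like cells of the same library, 4 of 7 members were called higher and 1 lower, beside 13.5% and 7.92% of 11723 genes. The members' median fold was 1.63 and 1.52, beside 1.072 and 1.067 over all genes. Cldn7 went from 21.5 to 132 CPM in library 2 and from 47.8 to 196 CPM in library 4, folds of 6.11 (5.85 to 6.38) and 4.10 (3.96 to 4.25). Cldn6 went from 28.5 to 72.2 CPM and from 40.7 to 82.4 CPM, folds of 2.53 (2.42 to 2.65) and 2.03 (1.95 to 2.11). Cdh1 reached 125 and 136 CPM, folds of 1.63 (1.57 to 1.68) and 1.52 (1.48 to 1.56), and Epcam 447 and 452 CPM, folds of 1.71 (1.68 to 1.74) and 1.52 (1.49 to 1.54). Cdh1 and Epcam lay just inside the threshold in library 4 and fell short of it when levels were scaled by median-of-ratios size factors, with 1.38-fold for both in that library. With classes set by marker UMIs of thinned cells Cdh1 also fell short, at 1.494-fold.

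Cdh3 was lower in formative-like cells, at 8.97 against 14.3 CPM in library 2 and 11.4 against 18.6 CPM in library 4, folds of 0.627 (0.560 to 0.701) and 0.615 (0.568 to 0.667). It was the only member called lower in either comparison, and with classes set by marker UMIs of thinned cells instead of clusters it was not called, at 0.689-fold and 0.700-fold. Tjp1 lay just outside the threshold with folds of 1.47 (1.41 to 1.54) and 1.44 (1.38 to 1.49). Cdh2 stood at 7.77 and 8.37 CPM in library 2, a fold of 1.08 (0.952 to 1.22), and at 5.398 and 8.23 CPM in library 4, a fold of 1.53 (1.35 to 1.72).

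**Figure D2:**
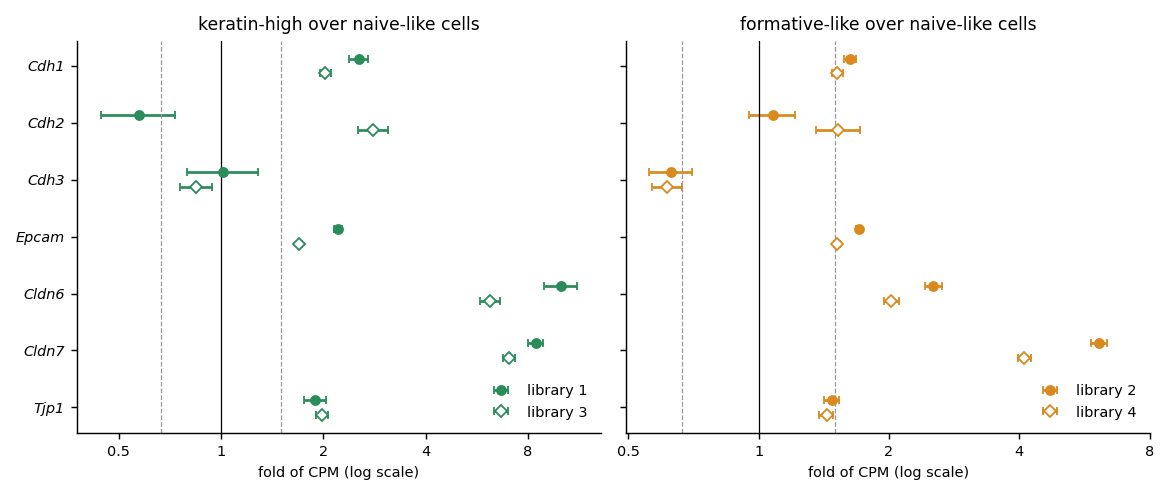
Fold of CPM over naive-like cells of the same library (log axis) for keratin-high cells in libraries 1 and 3 (left) and formative-like cells in libraries 2 and 4 (right), with exact 95% counting intervals; the solid line marks 1 and the dashed lines 1.5-fold in either direction. Cdh2 lies on opposite sides of 1 on the left (0.574 and 2.80), and Cdh3 is below the threshold on the right (0.627 and 0.615).

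The wider adhesion lists were counted with the same rule, by which 15.2% of all genes were higher and 9.58% lower in keratin-high cells. In keratin-high cells 5 of 13 tested catenins, nectins and partners were higher and 0 lower. They include the actin linker vinculin (Vcl), which stood at 23.6 and 67.3 CPM in naive-like and keratin-high cells of library 1 and at 31.1 and 102 CPM in library 3, and Nectin2 with folds of 2.09 (1.96 to 2.21) and 1.99 (1.93 to 2.06). Afdn, which encodes the nectin-binding protein afadin, was called with folds of 1.51 (1.45 to 1.58) and 1.53 (1.49 to 1.57). Of 11 other tight junction genes 6 were higher. Cingulin (Cgn) went from 4.38 to 21.3 CPM and from 7.32 to 25.6 CPM, F11r, which encodes the junctional adhesion molecule JAM-A, differed 2.21-fold (1.99 to 2.45) and 2.09-fold (1.97 to 2.22), and Cgnl1 1.77-fold in both libraries. The polarity list had 5 of 9 higher, among them Crb3 with 2.58-fold (2.37 to 2.79) and 2.22-fold (2.10 to 2.35), Pard3 and Mpp5. Of 4 desmosome genes tested 3 were higher. Desmoplakin (Dsp) stood at 4.70 and 14.97 CPM in library 1 but at 3.44 and 29.5 CPM in library 3, and Pkp2 and Dsg2 were called with folds of 1.80 to 2.75. None of the 12 other cadherins passed the count minimum there. Ctnnd2 and Ocln had fewer than 200 counts in the naive-like cells of at least 1 library and reached the minimum only together with the keratin-high cells, where they were higher, so their calls give no support for a direction of their lists.

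In formative-like cells genes of these lists were called in both directions, and the shares over all genes were 13.5% higher and 7.92% lower. Of 13 catenins, nectins and partners 2 were higher, Nectin1 with 7.18-fold (6.58 to 7.84) and 5.86-fold (5.35 to 6.43) and Ctnnd2, which is near the share over all genes, and plakoglobin (Jup) was lower with 0.549-fold (0.517 to 0.581) and 0.611-fold (0.586 to 0.637). Of 15 tight junction genes 4 were higher and Cldn9 was lower. Ocln, which encodes the tight junction protein occludin, stood at 1.04 and 7.09 CPM in library 2 and at 1.75 and 8.95 CPM in library 4, Marveld3 differed 7.49-fold (6.31 to 8.91) and 4.80-fold (4.14 to 5.58), and Cldn3 2.86-fold (2.59 to 3.16) and 2.22-fold (2.04 to 2.41). Of the 12 other cadherins only Cdh4, Cdh10 and Cdh24 reached the count minimum, with at most 4.67 CPM. They were called higher. The polarity list had 4 of 9 higher (Crb3, Pard3, Pard6b and Patj) and the desmosome list 4 of 6 (Dsg2, Dsp, Ppl and Evpl). Cdh4, Cdh10, Cdh24, Ctnnd2, Ocln, Marveld2, Patj, Ppl and Evpl had fewer than 200 counts in the naive-like cells of at least 1 library and reached the minimum only with the formative-like cells, where they were higher. Their calls therefore give no support for a direction of their lists. Without them the higher calls of the lists named so far in this comparison were Nectin1, Cldn3, Marveld3, Crb3, Pard3, Pard6b, Dsg2 and Dsp. Cldn9 had fewer than 200 counts in the formative-like cells of both libraries. It reached the minimum only with the naive-like cells, where it was higher, so its lower call gives no such support either. Cd9, the gene of a tetraspanin that associates with Epcam, was lower, at 254 against 109 CPM in library 2 and 210 against 110 CPM in library 4.

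Genes for regulators of Cdh1 were called in both directions. Zeb1, which encodes a repressor of Cdh1, was lower in both classes. It stood at 18.7 and 6.70 CPM in naive-like and keratin-high cells of library 1, 14.2 and 6.57 CPM in library 3, and at 7.98 and 1.67 CPM in naive-like and formative-like cells of library 2. Twist1 and Snai3, also listed as repressors, were higher in both classes, Twist1 with folds of 6.02 (5.07 to 7.13) and 7.16 (6.35 to 8.09) in keratin-high cells. Zeb2, which did not reach the count minimum in the formative comparison, was higher in keratin-high cells, with 2.01-fold (1.39 to 2.85) in library 1 and 8.89-fold (7.59 to 10.5) in library 3. Both Zeb genes differed between subsets of the class, as given with the finer clustering. The epithelial splicing regulator Esrp1 was higher in keratin-high cells with 3.33-fold (2.94 to 3.76) and 1.83-fold (1.70 to 1.98), as were Ovol2 and Esrp2, while Grhl3 was lower in both classes. In formative-like cells none of the 8 epithelial regulators was called higher, and Elf3 was lower beside Grhl3, at 12.2 against 7.12 CPM in library 2 and 12.4 against 7.04 CPM in library 4. Zeb2, Ovol2 and Esrp2 in the keratin-high comparison and Twist1 in the formative comparison had fewer than 200 counts in the naive-like cells of at least 1 library, so they too passed the minimum only with the class where they were higher. Zeb1 and Grhl3 had fewer than 200 counts in keratin-high cells of library 1 and in formative-like cells of libraries 2 and 4. There they passed the minimum only with the naive-like cells, where they were higher. The calls of these genes therefore give no support for a direction of their lists. The serine protease gene St14 was called higher in both classes, with folds of 1.62 to 3.002.

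The members also changed along the keratin count of single cells, after each cell was thinned to 5000 UMIs. In library 3 Cldn7 went from 48.0 CPM in cells with no Krt8 or Krt18 UMI through 100.1, 164 and 188 CPM to 248 CPM in cells with 6 or more. Cldn6 went from 14.6 to 100.1 CPM and Tjp1 from 43.2 to 99.0 CPM over the same bins. Library 4 had the same order, from 103 to 336 CPM for Cldn7 and from 56.4 to 158 CPM for Cldn6. Cdh1 was higher at each step in both libraries, from 55.9 to 105 CPM and from 107 to 184 CPM, while Epcam went from 279 to 404 CPM and from 359 to 487 CPM. Cdh3 was lower at the top than at the bottom, 7.10 against 9.52 CPM in library 3 and 8.36 against 15.7 CPM in library 4. Cdh2 was highest inside the range in library 3, with 35.3 CPM (29.6 to 41.6) at 3 to 5 keratin UMIs and 24.3 CPM (21.8 to 26.9) at 6 or more.

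**Figure D3:**
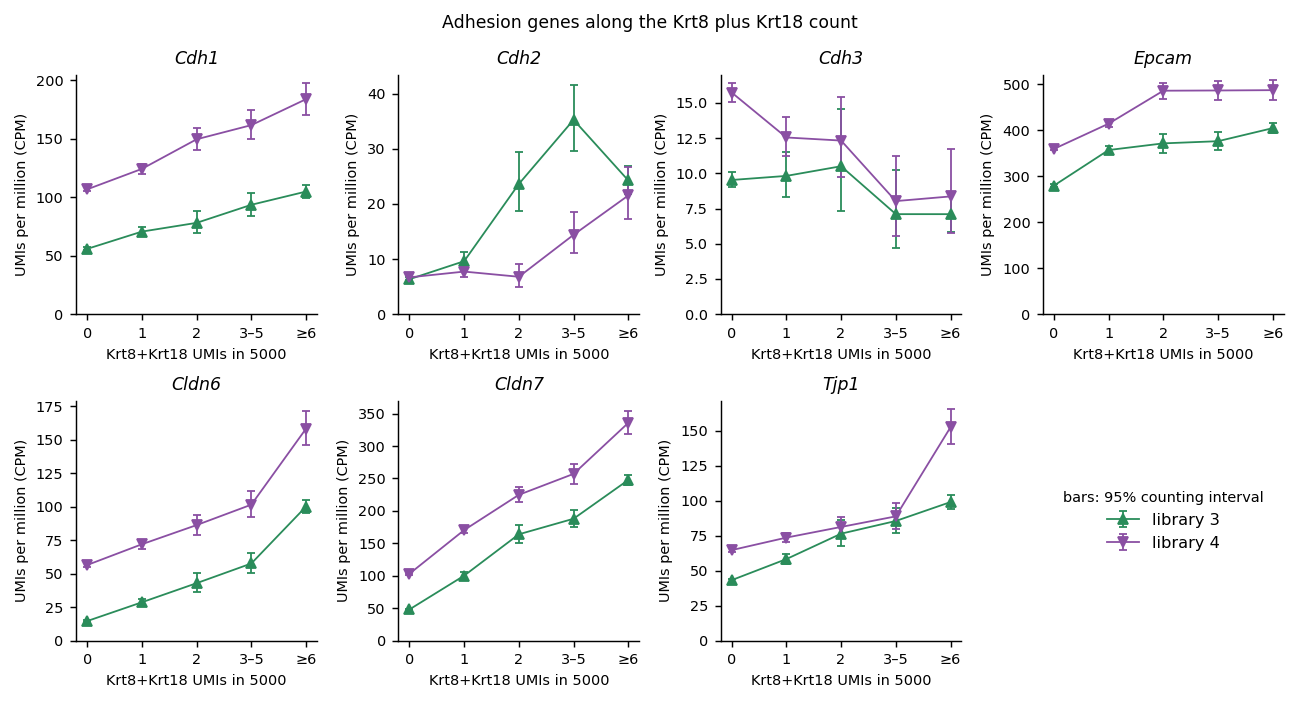
Level of each gene (CPM, linear axis from 0) in cells grouped by their Krt8 plus Krt18 UMIs among 5000 UMIs, for the libraries that fill all 5 bins (3 and 4), with 95% counting intervals. In library 3 Cldn7 climbs from 48.0 to 248 CPM, and Cdh2 is highest at 35.3 CPM in the bin of 3 to 5 UMIs. In library 4 Cdh2 is highest at 21.5 CPM in the bin of 6 or more.

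A finer clustering, added after the data were seen, split the keratin-high cells. The larger subset was led by Isg15 and Cited1 and held 435 cells in library 1 and 1586 in library 3. Krt8 stood at 186 and 280 CPM there, with a UMI in 44.4 and 50.7% of cells, and Acta2 at 1.45 and 9.87 CPM. The other was led by Gzmd, Prrx1 and Col8a1, with 476 cells in library 3, 63 in library 4 and 14 each in libraries 1 and 2. It had 2789 and 2337 CPM of Krt8 and 2459 and 1709 CPM of Acta2 in libraries 1 and 3. The names follow the fold over all other cells, and the naming genes were sparse. Gzmd had 190 UMIs (15.9 CPM) over the 476 cells of library 3 and 3 UMIs (1.88 CPM) over the 63 of library 4. Isg15 was present in both subsets of library 3, at 16.5 CPM in Isg15-led and 10.7 CPM in Gzmd-led cells. Pooled Cdh2 levels of the subsets differed. In the Gzmd-led cells Cdh2 stood at 60.9, 82.9, 52.2 and 57.1 CPM in libraries 1 to 4, from 6.43-fold to 10.7-fold above naive-like cells of the same library. In the Isg15-led cells it stood at 4.19 CPM (3.13 to 5.49) in library 1 and 6.48 CPM (5.74 to 7.28) in library 3. The counting intervals of these pooled levels did not overlap between the subsets in either library. The 12 Isg15-led cells of library 4 had 23.2 CPM (10.6 to 44.0) of Cdh2 from 9 UMIs, 4.29-fold (1.95 to 8.23) above naive-like cells. Without the Gzmd-led cells, Cdh2 was lower in keratin-high than in naive-like cells of library 1, 0.442-fold, and 1.11-fold in library 3, and the same 5 members stayed called higher. The level of Epcam was 461 CPM in Isg15-led and 259 CPM in Gzmd-led cells of library 3, and that of Cdh1 100.4 and 78.6 CPM, whereas Cldn6 and Tjp1 were higher in the Gzmd-led cells, at 73.4 against 52.9 CPM and 91.2 against 72.7 CPM. Zeb2 was 1.57-fold (1.03 to 2.32) and 2.43-fold (1.97 to 3.004) above naive-like cells in the Isg15-led cells of libraries 1 and 3, and 32.4-fold (27.5 to 38.3) in the Gzmd-led cells of library 3. Zeb1, lower over the whole class, stood above naive-like cells in the Gzmd-led cells, with 2.11-fold (1.05 to 3.79) in library 1 and 1.17-fold (1.001 to 1.35) in library 3.

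The Gzmd-led cells were themselves a range by their Epcam count, a split made after the data were seen. In library 3, 145 of the 476 cells had no Epcam UMI, 109 had 1 to 3 and 222 had 4 or more, with median depths of 17304, 20305 and 29930 UMIs per cell. Cells of more than 2 times the median UMI count made up 68 of the 222 and 0 of the 145. Cdh1 stood at 115 CPM in cells with 4 or more Epcam UMIs, 41.2 CPM in those with 1 to 3 and 13.8 CPM (9.67 to 19.1) in those with none. Cldn7 stood at 235, 32.5 and 7.29 CPM, and Cldn6 at 113, 26.9 and 6.90 CPM, in the same order. Cdh2 was in the opposite order at 24.7, 73.7 and 107 CPM. Between the ends, Cdh1 was 8.31-fold (5.95 to 11.95), Cldn6 16.4-fold (10.3 to 27.8) and Cldn7 32.3-fold (20.6 to 53.7) lower in cells without Epcam, and Cdh2 was 4.35-fold (3.59 to 5.29) higher. Tjp1 at 102, 76.8 and 74.0 CPM and Cdh3 at 9.50, 9.11 and 9.59 CPM differed less than 1.5-fold. Of the 6 members other than Epcam, 3 were thus lower and 1 higher, beside 19.2% and 21.7% of 9599 genes. The median fold of the 6 members was 0.422, beside 1.05 over all genes. In the cells without Epcam, Cdh1, Cldn6 and Cldn7 had 36, 18 and 19 UMIs, against 809, 798 and 1658 with 4 or more. These genes passed the count minimum of this split only through the cells with 4 or more Epcam UMIs, where they were higher. The count of lower members and the median fold therefore give no support for a direction of the members as a set. Without the cells of high UMI count Cdh1 was 0.108-fold and Cdh2 3.82-fold. After thinning to 5000 UMIs, the 254 cells at 0 Epcam UMIs were set against the 222 cells with at least 1. Both the depth and the compared cells thus differ from the split above, so the change in fold cannot be put down to depth alone. There Cdh1 was 0.329-fold and Cdh2 2.51-fold. Cldn6 was 0.229-fold, beside 0.0610-fold in the split above, and Cldn7 0.158-fold, beside 0.0310-fold.

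Cdh1, Cldn6, Cldn7 and Cdh2 had the same order in library 4, where 13 of the 63 Gzmd-led cells had no Epcam UMI. In those 13 cells Cdh2 stood at 144 CPM (103 to 196), Cdh1 at 7.20 CPM from 2 UMIs and Cldn7 at 0 UMIs, which allows up to 13.3 CPM. The 39 cells with 4 or more Epcam UMIs had 29.7, 199 and 420 CPM of these genes. Tjp1 differed more than in library 3, at 82.8 CPM without Epcam and 190 CPM with 4 or more UMIs, a fold of 0.437 (0.271 to 0.674). In the 4 and 5 such Epcam-free cells of libraries 1 and 2 the Cdh2 level was 124 CPM (59.3 to 228) and 84.4 CPM (40.5 to 155), with 1 Cdh1 UMI in each. In each of the 4 libraries the Cdh2 interval of the Gzmd-led cells without Epcam lay above that of naive-like cells. The Cdh1 interval lay below it in libraries 2, 3 and 4, whereas in library 1 it reached 68.95 CPM from 4 cells.

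In libraries 1, 3 and 4 naive-like cells without an Epcam UMI also had less Cdh1 and Cldn7 than the remaining naive-like cells, but not more Cdh2. The 207 such cells of library 2 are not described here. In library 3, 450 such cells with a median of 15200 UMIs had 39.6 CPM of Cdh1 beside 47.6 CPM in the remaining naive-like cells, 18.6 CPM of Cldn7 beside 26.1 CPM, and 5.18 CPM (3.63 to 7.17) of Cdh2 beside 5.87 CPM. The 831 such cells of library 1 had 28.7 CPM (25.9 to 31.7) of Cdh1 beside 37.4 CPM, 14.1 CPM (12.2 to 16.3) of Cldn7 beside 22.5 CPM, and 7.79 CPM (6.38 to 9.42) of Cdh2 beside 9.64 CPM. In library 4 the 70 such cells had 58.7 CPM (45.6 to 74.4) of Cdh1 beside 90.1 CPM, 19.0 CPM (11.9 to 28.7) of Cldn7 beside 48.3 CPM, and 2.59 CPM (0.534 to 7.56) of Cdh2 beside 5.44 CPM.

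Marker levels moved with the Epcam count in the Gzmd-led cells. In library 3 Vim, an intermediate filament gene of mesenchymal cells, stood at 1207, 3552 and 4876 CPM with 4 or more, 1 to 3 and no Epcam UMIs, and Acta2 (smooth muscle actin) at 998, 2530 and 2904 CPM. Krt8 fell from 3100 through 1653 to 881 CPM, which remained above the 6.91 CPM of naive-like cells without Epcam. The pluripotency gene Pou5f1 stood at 277, 136 and 28.8 CPM. The summed level of the 8 fibroblast or mesenchyme genes was 1289, 3758 and 5174 CPM, with Col1a1 at 122 and Col1a2 at 120 CPM in the cells without Epcam and 1 UMI each of Lum, Dcn and Thy1. The part of another cell type in these values was not tested.

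**Figure D4:**
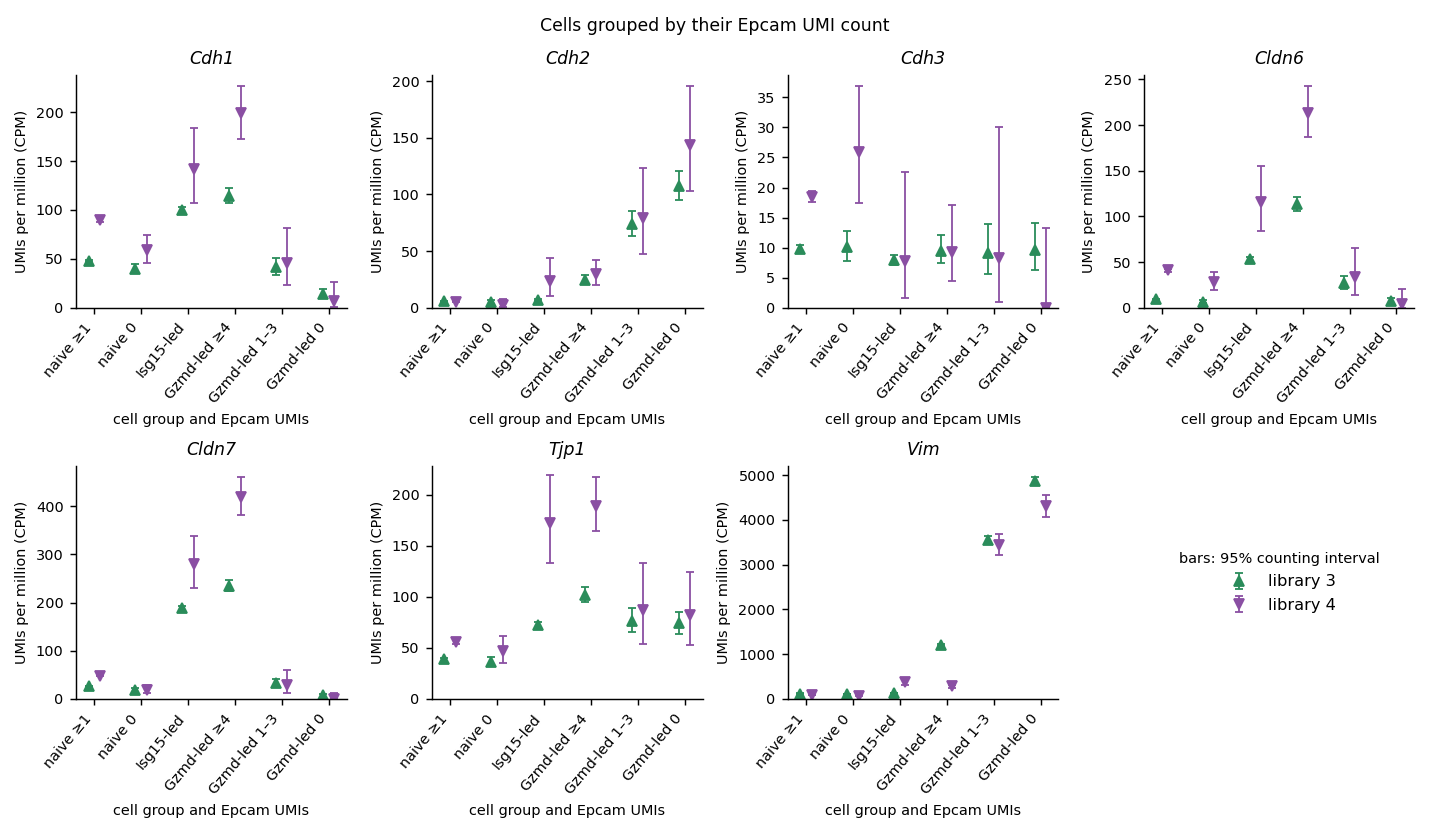
Level of each gene (CPM, linear axis from 0) in naive-like cells with at least 1 or no Epcam UMI, in the Isg15-led keratin-high cells, and in the Gzmd-led keratin-high cells with 4 or more, 1 to 3 or no Epcam UMIs, in libraries 3 and 4 with 95% counting intervals. In library 3 Cdh1 falls from 115 through 41.2 to 13.8 CPM as Cdh2 goes from 24.7 through 73.7 to 107 CPM, while naive-like cells without Epcam keep 39.6 CPM of Cdh1.

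The wider lists were also counted in the Gzmd-led cells of library 3 without Epcam against those with 4 or more Epcam UMIs. Over all 9599 genes of this split 19.2% were lower and 21.7% higher, with a median fold of 1.05. Of the 12 tight junction genes that reached the minimum of 50 counts 8 were lower and 1 (Magi3) higher. Cldn3 stood at 1.92 against 45.1 CPM, Cldn4 at 8.82 against 72.8 CPM and Cgn at 2.30 against 42.1 CPM. The polarity list had 5 of 9 lower, led by Crb3 at 2.30 against 48.7 CPM, and the desmosome list 5 of 6 lower, with Pkp2 the exception at 107 against 95.7 CPM. Of the lower polarity and desmosome genes only Scrib, Llgl2 and Dsp had at least 50 UMIs in the cells without Epcam, and the others, like most of the lower tight junction genes, passed the minimum through the cells with 4 or more Epcam UMIs, where they were higher. The counts of lower genes therefore give no support for a direction of the lists. Dsp stood at 42.2 against 106 CPM. The core catenins were not called. Ctnnb1 stood at 266 CPM in the cells without Epcam and Ctnna1 at 254 CPM, folds of 1.29 (1.17 to 1.41) and 0.820 (0.750 to 0.895). Of the genes around Epcam, Spint1, Spint2, St14 and Cd9 were lower, while Cd44 was higher at 40.3 against 7.80 CPM. In the repressor list 4 of 5 tested genes were higher, beside 21.7% of all genes: Zeb2 at 109 against 24.96 CPM, Twist1 at 93.6 against 21.7 CPM, Zeb1 at 28.8 against 10.2 CPM and Snai2, from 44 and 19 UMIs, at 16.9 against 2.70 CPM. Snai3 was lower, from 6 against 71 UMIs. Snai2 reached the minimum only with the cells without Epcam, and Snai3 only with those with 4 or more Epcam UMIs, each where it was higher. The count of the repressor list therefore gives no support for a direction either. Of 8 epithelial regulators only Esrp1 and Grhl2 reached the count minimum, through the cells with 4 or more Epcam UMIs, at 3 and 1 UMIs against 129 and 62. Cdh11, a cadherin of mesenchymal cells, stood at 22.2 against 1.56 CPM, from 58 and 11 UMIs. It too passed the minimum only with the cells without Epcam, where it was higher.

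Most Gzmd-led cells had UMIs of only 1 of the genes Cdh1 and Cdh2, or of neither. In library 3, 32.6% of the 476 cells (28.4 to 37.0, exact binomial interval) had Cdh1 UMIs alone, 30.7% (26.6 to 35.0) Cdh2 UMIs alone, 25.6% both and 11.1% neither. In the Isg15-led cells of that library 74.4% had Cdh1 alone, 12.7% both and 1.39% Cdh2 alone. No expected share was computed within a subset, so these shares do not show that the genes exclude each other. After thinning to 5000 UMIs, keratin-high cells of library 3 with a UMI of both genes were 0.525 times (0.357 to 0.743) as frequent as the product of the separate shares, and those with Cdh2 and Cldn7 0.455 times (0.321 to 0.624). These values pool both subsets, whose levels of the genes differ. In keratin-high cells of library 1 the Cdh1 and Cdh2 value was 0.978 (0.267 to 2.49). In naive-like cells the Cdh1 and Cdh2 value lay between 0.992 and 1.25 in the 4 libraries, and every interval included 1. The share of Cdh2 among the summed UMIs of Cdh1, Cdh2 and Cdh3 was 37.2% (34.9 to 39.6) in the Gzmd-led and 5.64% (5.02 to 6.32) in the Isg15-led cells of library 3, and 9.29% (8.63 to 9.98) in its naive-like cells. Capture may differ between the 3 transcripts, so these shares are compared only between cells.

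At 5000 UMIs per cell, the share of kept cells with an Epcam UMI was 61.1, 73.6, 67.8 and 80.5% in libraries 1 to 4, and 89.6, 97.5, 92.3 and 98.8% without thinning. For Cdh1 the thinned shares were 17.5, 34.7, 24.98 and 42.8%, and for Cdh2 4.30, 3.70, 4.23 and 3.52%. RNA free in the droplets can give a UMI in a cell that does not express the gene. In the 145 Gzmd-led cells of library 3 without Epcam, 16.6% (10.9 to 23.6) had a Cdh1 UMI and 8.97% (4.86 to 14.8) a Cldn7 UMI at their own depth of 17304 UMIs, beside 63.6 and 46.8% of all kept cells of the library at a median of 19405 UMIs.

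Across the 8 profiles of a class in a library, the log2 CPM of Cdh1 went with that of Cldn6 (Pearson r = 0.99) and Tjp1 (0.97), and that of Epcam with Cldn7 (0.97). Cdh2 was not close to any member (0.08 to 0.28, and -0.29 with Cdh3). Among 7406 genes of mean CPM at least 10, the nearest to Cdh1 was Cmtm4 (r = 0.998), to Cldn6 the cingulin gene Cgn (0.997), to Cldn7 Ssbp3 (0.994) followed by Pard3 (0.993), to Epcam Otud5 (0.994) and to Tjp1 Rap1b (0.998). The nearest to Cdh3 was Washc5 (0.978) and to Cdh2 Heatr6 (0.890). The 8 profiles share libraries and depth, so these values are a description.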

How the data were processed

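The authors aligned the 10x Genomics 3′ reads to mm10 with Cell Ranger 6.1.2 (submitters' processing notes), joined the 4 libraries with reads subsampled to similar depth, and deposited the filtered matrix of raw UMI counts. Per the study's methods, cells with fewer UMIs or genes than 1 SD under their library's mean, or with over 10% mitochondrial UMIs, were dropped. Each cell was scaled to a total of 10000 and log-transformed. From 2000 variable genes (vst, loess in R 4.3.3), with the 7 members and 81 further adhesion genes left out, 20 principal components and 20 neighbours gave Leiden clusters at resolution 0.2 (leidenalg 0.10.2, Python 3.11.15). Clusters with summed keratin-high marker levels over 500 CPM were called keratin-high, and the others by their larger pluripotency panel. No batch correction was made. Doublets were not called. An alternative left out cells above 2 times the median UMI count of the library (1615 cells). For shares of cells and marker bins each cell was thinned to 5000 UMIs, with 0 kept cells under that depth.

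Folds have exact conditional binomial intervals and shares Clopper-Pearson intervals, at 95%. They cover counting error only. A class entered with at least 100 cells in a library and a gene with at least 200 counts over both classes in each library (50 counts for the split by Epcam UMIs). No cell was treated as a replicate, and no p-value was computed. At 3 counts the floor of a library is 0.0150 to 0.0180 CPM. The rule and the intervals were checked on simulated counts.

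Named genes were all members and, per wider list and comparison, up to 3 called genes in each direction with the highest mean level. Genes named beyond these were chosen after their values were seen. The members and lists were chosen with earlier results of these data known. The finer clustering, the split by Epcam UMIs, the analysis without Gzmd-led cells and the range within naive-like cells were added after the data were seen. The results of 2 genes of the wider lists are not reported here.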

Additional observations from a re-analysis of the deposited data

Results flagged for a closer look

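Cdh2 in keratin-high over naive-like cells went in opposite directions in the libraries that held the class, with a fold of 0.574 in library 1 and 2.80 in library 3. Each library is 1 culture, so the difference between them was not tested. The Gzmd-led subset, in which Cdh2 stood at 60.9 and 52.2 CPM in these libraries, made up 14 of 449 keratin-high cells in library 1 and 476 of 2063 in library 3.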

How the results depend on the processing

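The genotypes could not be compared because the libraries could not be tied to labelled samples, and no result comes from a test between groups. Class folds were taken against naive-like cells of the same library. The number of genes called in keratin-high cells ranged from 2731 to 4121 over the alternatives, beside 2812. For formative-like cells it was 2515, and 1413 with classes set by a marker rule at 5000 UMIs, which brought in library 3 with 312 cells. Under that rule 0 members were called lower in formative-like cells, since Cdh3 was 0.689-fold in library 2 and 0.700-fold in library 4. There 3 members instead of 4 were called higher, since Cdh1 was 1.494-fold in library 4. Cdh2 was called in keratin-high cells, which then came from libraries 3 and 4 only, with 654 and 306 cells. Under median-of-ratios size factors the share of calls that were higher was 44.6% instead of 61.4% for keratin-high and 49.96% instead of 63.1% for formative-like cells, the median log2 fold over all genes moved from 0.11 to -0.08 in keratin-high cells of library 1, and 2 members instead of 4 were called higher in formative-like cells (Cdh1 and Epcam were lost). Epcam in keratin-high cells of library 3 was then 1.499-fold, just under the threshold. Leaving out 1 library at a time gave 0 to 1 members called lower in keratin-high cells; without library 3 the 1 was Cdh2. It gave 3843 to 4121 genes called in keratin-high and 3195 to 3212 in formative-like cells, since a call then rested on 1 library. No member called in the report reversed under the alternatives run. Cdh2 in keratin-high cells, not called there, was called lower without library 3 (0.574-fold) and higher without library 1 (2.80-fold) and under the marker rule. Splitting the Gzmd-led cells by Epcam after thinning to 5000 UMIs set 254 cells at 0 against 222 cells with at least 1 UMI, instead of 4 or more. The folds were then 0.329 for Cdh1, 0.229 for Cldn6, 0.158 for Cldn7 and 2.51 for Cdh2. Depth and compared cells changed together. Intervals cover counting error, and with 1 culture per library the variation between cultures is unknown.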
